A study of Homo sapiens with 6 samples.

Results

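Nuclear receptors are transcription factors that bind short DNA elements and, in many cases, respond to small lipophilic ligands such as steroids, retinoids, thyroid hormone, vitamin D, oxysterols and fatty acids. The genes described here are a list of 46 nuclear receptor genes, read through the probe sets whose platform annotation names a listed gene and no other. The annotation gave 127 such probe sets for 39 of the 46 genes, out of 54675 probe sets and 19775 named genes on the array. HNF4A, NR0B1, NR1D1, NR1H2, NR1H4, NR1I2 and NR2F2 had no probe set of their own in the annotation used here, so the list could not be read in full, and the 3 probe sets shared by NR1D1 and THRA were not used. The values compare CL1-5, the highly invasive population, with CL1-0, the poorly invasive one, with 3 biological repeats each on one-colour arrays of total RNA. Both are lung adenocarcinoma lines with the parental line CL1, and both were grown without any added agent in RPMI with fetal bovine serum, penicillin and streptomycin.

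Classical receptors of this family switch genes on or off with ligand, exchanging corepressors for coactivators, and many of them bind DNA as a heterodimer with an RXR. Orphan members such as the NR2F and NR4A receptors act without a classical ligand, the NR4A genes being induced within minutes of many stimuli. In lung epithelium the glucocorticoid receptor NR3C1 and the retinoic acid receptors are known for their part in maturation and repair, and RARB is known as a gene that retinoic acid itself induces. Serum contains steroids and retinoids, whose amounts in these cultures were not measured.

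Promoters of 3 receptors that fell in CL1-5 are shown first, with matches to a searched element in capitals. Of the 4 RARB windows and the 2 NR2F1 windows, the one with the most matches is shown, or the first where they tied. They are RefSeq sequences of 250 bases before and 50 bases after a gene start (build GRCh38.p14, 5′ to 3′ on the gene's strand), and 41 of the 46 genes had at least 1 such window. In the RARB window, which lies at chr3:25428013-25428312 on the plus strand, the capitals mark a direct repeat of the receptor half-site with a spacing of 5 bases, known as DR5. In the NR2F1 window at chr5:93582972-93583271, also on the plus strand, they mark a single half-site. In the NR4A3 window at chr9:99821635-99821934 on the plus strand they mark TGACG on either strand. This is the half-site of the cAMP response element and not a receptor half-site.
RARB: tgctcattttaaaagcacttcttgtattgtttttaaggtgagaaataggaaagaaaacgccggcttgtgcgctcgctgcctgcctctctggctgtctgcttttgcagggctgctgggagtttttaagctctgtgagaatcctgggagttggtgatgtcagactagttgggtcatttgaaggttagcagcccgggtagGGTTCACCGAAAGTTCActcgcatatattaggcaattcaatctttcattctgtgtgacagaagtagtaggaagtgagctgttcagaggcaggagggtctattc
NR2F1: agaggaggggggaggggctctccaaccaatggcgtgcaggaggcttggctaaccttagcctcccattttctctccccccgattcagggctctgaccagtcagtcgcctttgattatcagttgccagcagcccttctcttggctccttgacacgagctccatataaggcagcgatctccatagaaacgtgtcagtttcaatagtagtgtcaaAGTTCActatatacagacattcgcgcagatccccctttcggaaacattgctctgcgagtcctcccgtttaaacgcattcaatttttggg
NR4A3: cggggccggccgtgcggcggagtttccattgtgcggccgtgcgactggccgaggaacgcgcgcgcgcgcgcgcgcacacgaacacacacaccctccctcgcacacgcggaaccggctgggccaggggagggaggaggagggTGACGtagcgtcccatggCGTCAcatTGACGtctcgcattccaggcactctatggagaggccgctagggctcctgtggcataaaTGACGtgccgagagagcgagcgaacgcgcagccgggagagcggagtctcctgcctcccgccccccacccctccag

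Half-sites were searched on both strands as the consensus AGGTCA or a variant of it, which could be AGTTCA, else the letters GGTTCA or instead the letters GGGTCA. A DR5 is any of these, then 5 bases of any kind, then any of these, so it overlaps the half-site search. The RARB match was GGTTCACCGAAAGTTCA, at 53 to 37 bases before the start, and a DR5 stood in 31 of 35116 promoters of this length (0.0883%) and in 1 of the 96 windows of the listed genes. A half-site alone stood in 38.6% of all promoters and in 41 of the 96 windows of the listed genes, 42.7%. The half-site TGACG stood in 24.6% of all promoters and in 21 of the 96 windows of the listed genes, 21.9%. At least 4 matches stood in 0.313% of all promoters, a threshold taken from the NR4A3 window itself. The full element TGACGTCA (1.85% of all promoters, with TGACG within it) was found in the windows of NR2E1 and NR6A1, and the NR4A response element AAAGGTCA (1.22%, with a half-site within it) in those of ESR2, ESRRG, NR2E1 and PPARG. The ROR core TAGGTCA, which also holds a half-site, stood in 1.85% of all promoters and in windows of NR1H3, RARB and RXRG. The direct repeat with a spacing of 1 base (0.131% of all promoters) was found in 0 windows of the listed genes. A match is a string of letters and not a measured binding site.

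The 6 arrays had medians of 30.2 to 30.9 signal units, and precision is limited by their number. A probe set was tested where it lay above the 40th percentile of its array, at 19.5 to 20.3 units and used as a stand-in for background, on at least 3 of the 6 arrays. Most of the variance among arrays, 93.0%, lay along a first component between CL1-5 and CL1-0. A second component, with 4.42%, placed repeat 3 of each line away from its other repeats, so differences within repeat 3 and within repeats 1 and 2 are given for RARB and NR1D2, the receptors where they lay furthest apart. Of 11 lung epithelial markers with a probe set, 8 lay above the percentile on all arrays of CL1-5 and 8 on all arrays of CL1-0, with summed signals of 1315 to 1413 in CL1-5 and 906 to 972 in CL1-0. LAMP3, a lamellar body protein, made up most of the sum in CL1-5 (897 to 945 units, against 378 to 397 in CL1-0), and the other 10 summed to 418 to 469.8 in CL1-5 and 509 to 593 in CL1-0. The lung identity factor NKX2-1 was dim, its probe set without cross-hybridisation reading 24.4 to 25.4 units in CL1-5 and 24.0 to 30.5 in CL1-0, and the surfactant gene SFTPD lay at or under the percentile on all 6 arrays. Marker counts and sums took each gene's brightest probe set, cross-hybridising ones included. For NKX2-1 this was a cross-hybridising one at 63.3 to 76.2 units in CL1-5 and 73.3 to 83.4 in CL1-0. That of the surfactant gene SFTPB was also of this kind. EPCAM, an epithelial surface protein, lay under it in CL1-5 (9.75 to 11.3 units) and just above it in CL1-0 (27.5 to 32.8). The summed signal of 10 general epithelial markers was 4689 to 5488 in CL1-5 and 351 to 385 in CL1-0. The keratins KRT18 (3821 to 4653 in CL1-5, 38.5 to 54.2 in CL1-0) and KRT8 (548 to 562 in CL1-5, 48.3 to 50.2 in CL1-0) carried this difference, and the other 8 summed to 287 to 306 in CL1-5 and 263 to 290.2 in CL1-0. Both keratins were read only by cross-hybridising probe sets. The sum of 9 fibroblast markers was 321 to 339 in CL1-5 and 314 to 364 in CL1-0. Of this, a cross-hybridising probe set of COL1A1 gave 154 to 175 in CL1-5 and 146 to 185 in CL1-0. For 7 endothelial markers it was 267 to 285 in CL1-5 and 154 to 167 in CL1-0, and for 6 leukocyte markers 102 to 112 in CL1-5 and 102 to 124 in CL1-0. The leukocyte marker PTPRC lay under the percentile on all arrays, and the part of these markers in the receptor results was not tested.

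The receptor transcripts of CL1-5 were set against those of CL1-0 to find which differ between these 2 lines. With a single line for each degree of invasiveness, invasiveness and any other difference between the lines cannot be told apart. Of the 39 receptors with a probe set, 28 passed the filter, and among these 7 were called higher and 9 lower in CL1-5. A call means an adjusted p under 0.05 in limma's fit over all 14828 tested genes (Benjamini-Hochberg). RORA, VDR, NR3C1, PPARG, PPARD, THRA and RXRB were higher, and NR2F1, RARB, NR4A2, NR4A3, NR6A1, PPARA, NR2F6, NR1H3 and RARG were lower. That is 57.1% of the receptors tested, against 51.6% of all genes called in either direction, 23.3% higher and 28.3% lower, so the share of receptors called lay near the background. A call with at least a 2-fold change was made for 4 receptors upward and 4 downward, 28.6% of those tested, against 16.1% of all genes. The median log2 difference of the 28 receptors was -0.04, beside -0.03 over all genes, and the median of its size was 0.40, beside 0.32. Arrays of CL1-5 and CL1-0 did not overlap for 16 of the 28 receptors, 57.1%, against 58.8% of all genes. These 16 were also the 16 called receptors, so the same sign within repeat 3 as within repeats 1 and 2 was fixed in advance for them.

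**Figure D1:**
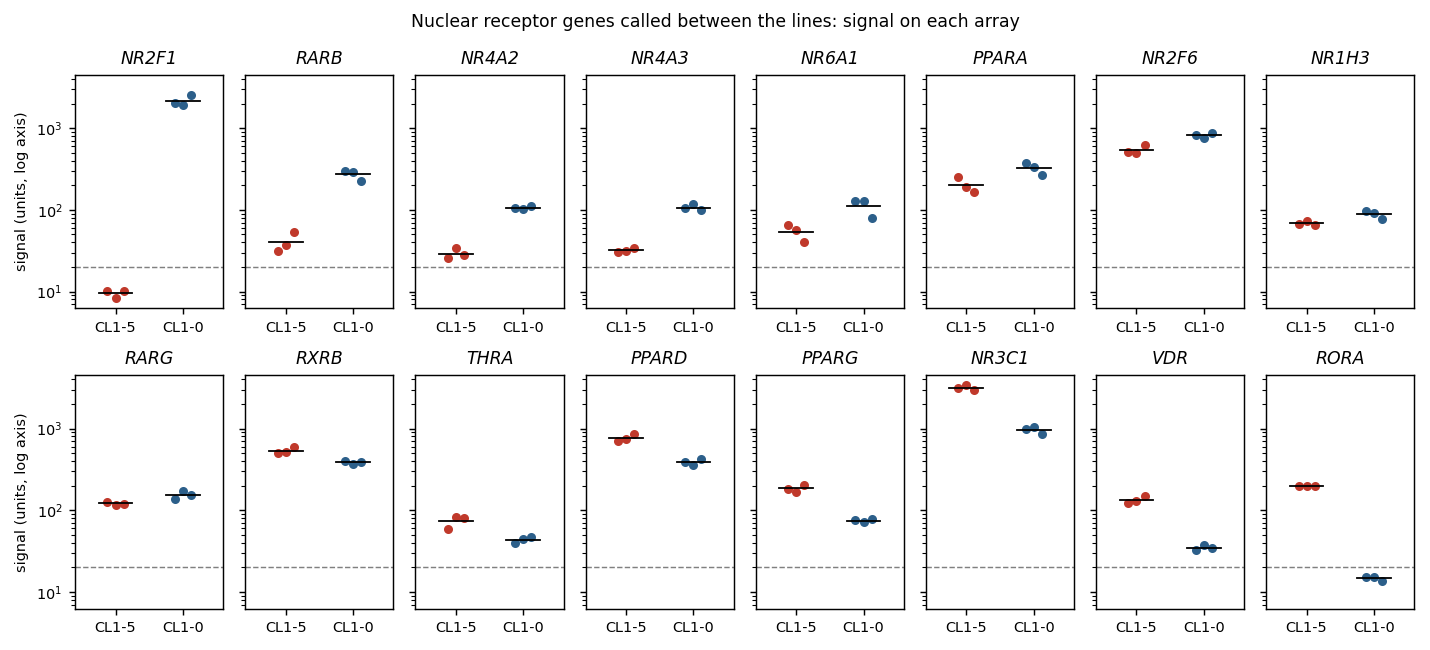
Signal on each array (log axis, points) and the line means (bars) for the 16 receptor genes called between the lines, CL1-5 in red and CL1-0 in blue, with the mean 40th percentile of the arrays as a dashed line. NR2F1 lies under the dashed line on all 3 CL1-5 arrays and RORA on all 3 CL1-0 arrays, while the other 14 lie above it in both lines.

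Values are log2 differences, CL1-5 minus CL1-0, on the log2(signal + 6.85) scale, on which a dim gene's change comes out too small, and each line has n = 3 arrays. Signals of different probe sets are not compared with one another. RNA of a whole culture cannot tell fewer expressing cells from less RNA per cell.

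**Figure D2:**
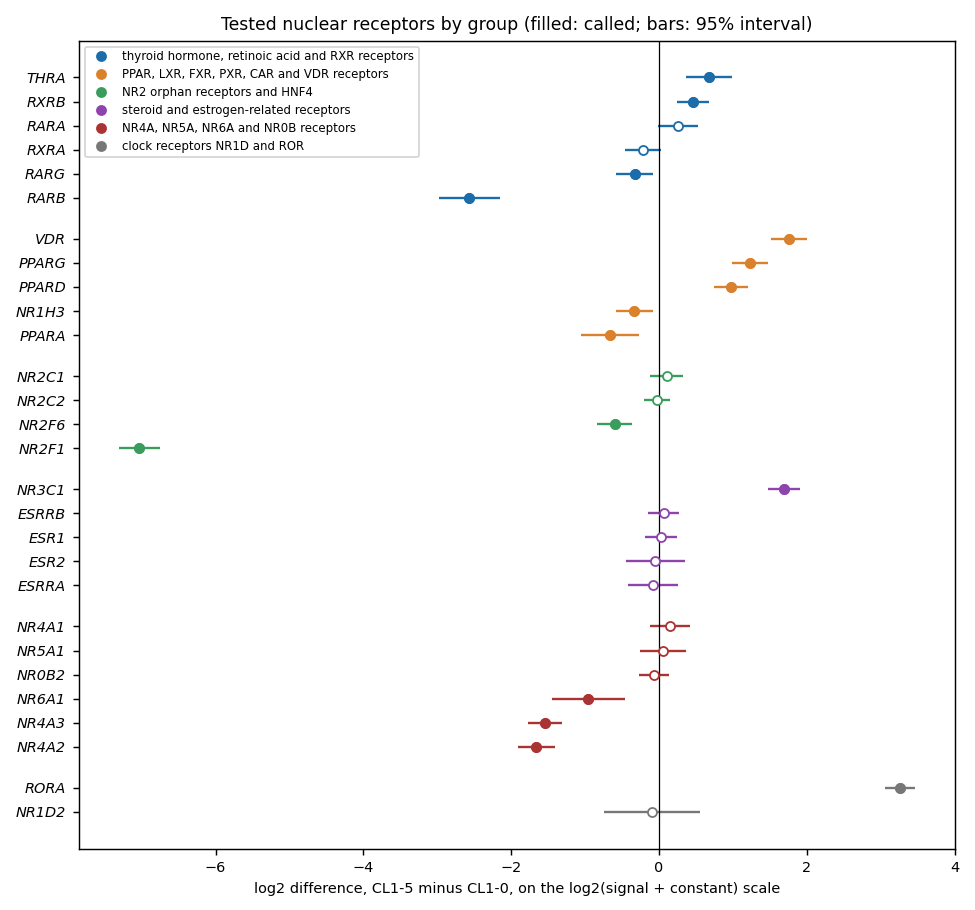
Log2 difference of each of the 28 tested receptors, CL1-5 minus CL1-0, grouped by role, with 95% intervals from limma as bars and filled points for called genes. The values run from -7.03 for NR2F1 to 3.26 for RORA, and the steroid and estrogen-related receptors other than NR3C1 lie around 0.

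Among the orphan receptors of the NR2 group, the transcript of NR2F1 lay above the 40th percentile in CL1-0 alone. NR2F1, also called COUP-TFI, is a regulator of neural and neural crest development and of cancer cell dormancy. The probe set read 10.2, 8.38 and 10.2 signal units in CL1-5, against 2027, 1926 and 2519.9 in CL1-0. All CL1-5 arrays lay under the 40th percentile and all CL1-0 arrays far above it, so the difference is a bound. The gene was at least 80.3-fold lower in CL1-5 (adjusted p = 9.5e-10, limma), through its single probe set.

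Its relative NR2F6, a repressor of other nuclear receptors and of cytokine genes in T cells, fell by far less. It read 512, 492 and 616 units in CL1-5 and 821, 765 and 867 in CL1-0, with no overlap, a log2 difference of -0.60 (SE 0.10, adjusted p = 0.0012, limma). A second tested probe set of NR2F6 gave -0.56 (SE 0.14). The testicular receptors NR2C1 and NR2C2, repressors that bind direct repeats, were not called. Their differences were 0.10 (95% interval -0.12 to 0.32) for NR2C1 and -0.03 (-0.20 to 0.15) for NR2C2, with overlapping lines. NR2E1, NR2E3 and HNF4G failed the filter.

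RORA, which activates genes through ROR elements and is known in the circadian clock, was above the percentile in CL1-5 alone. It read 197, 201 and 199 units in CL1-5, against 15.3, 15.1 and 13.6 in CL1-0. The CL1-5 arrays lay close together and all CL1-0 arrays under the percentile. RORA was at least 7.68-fold higher in CL1-5 (adjusted p = 1.0e-08, limma). Of its 8 probe sets 5 were tested, and all 5 were higher, with bounds of at least 2.44-fold to 7.68-fold. Each of the 5 passed the filter through the CL1-5 arrays alone, so their shared direction is no separate support.

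NR1D2, or REV-ERB beta, represses through the same elements as RORA, and its probe sets did not give 1 answer. The probe set that stood for the gene read 318, 287 and 618 units in CL1-5 and 371, 339 and 552 in CL1-0. Repeat 3 was the highest array of either line, and the difference of -0.10 (95% interval -0.75 to 0.55) was not called. It was 0.16 within repeat 3 and -0.23 within repeats 1 and 2, with opposite signs. The other probe set read 259, 309 and 274 in CL1-5 and 390.3, 326 and 411 in CL1-0, and was called lower at -0.41 (adjusted p = 0.024 over all probe sets, limma). RORB failed the filter.

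Clock genes around these receptors were called in both directions, 2 higher and 6 lower of 15 tested, with a median of -0.21. That is 53.3% called, near the 51.6% of all genes. HLF, a PAR bZIP output factor, was at least 2.23-fold lower, the activator CLOCK fell by 1.47 (SE 0.11), and its paralog NPAS2 rose by 1.03 (SE 0.11). BMAL1, the partner of both and a known target of ROR and REV-ERB receptors, stood at 0.05 and was not called.

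With the thyroid hormone receptor THRA, the retinoic acid receptors and RXRs were 6 tested genes, 2 higher, 2 lower and 2 not called. Of all genes 51.6% were called in either direction. RARB, a retinoic acid receptor, moved furthest. It read 31.5, 36.9 and 54.3 signal units in CL1-5, against 301, 287 and 228 in CL1-0. The lines did not overlap, and repeat 3 was the highest CL1-5 array and the lowest CL1-0 array. The log2 difference was -2.57 (SE 0.18, adjusted p = 4.4e-06, limma), with -1.94 within repeat 3 and -2.88 within repeats 1 and 2. The other tested RARB probe sets were also called lower, at -2.73 and -0.92.

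RARG, the receptor known from skin, read 126, 116 and 121 units in CL1-5 and 139, 173 and 152 in CL1-0. It was lower by a small margin, a difference of -0.33 (SE 0.11, adjusted p = 0.029, limma). It no longer passed when CL1-5 repeat 2, CL1-5 repeat 3 or CL1-0 repeat 2 was left out, with adjusted p of 0.11, 0.056 and 0.11 (limma). The second RARG probe set was called at -0.62.

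RARA, the most widely expressed of the retinoic acid receptors, was not called, at 0.26 (95% interval -0.01 to 0.52). It read 80.9, 77.6 and 87.9 units in CL1-5 and 59.5, 77.7 and 66.6 in CL1-0, and the lines overlapped. Without CL1-0 repeat 2 it passed as higher, at 0.35 (adjusted p = 0.046, limma), and 1 of its 4 probe sets, of the cross-hybridising kind, was called higher.

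The RXRs are the common heterodimer partners. RXRB rose, with 500.1, 509.8 and 587 units in CL1-5 and 399, 367 and 387 in CL1-0, a difference of 0.46 (SE 0.09, adjusted p = 0.0028, limma). A second RXRB probe set was called at 0.57 and another, at 0.08, was not. RXRA read 313, 338 and 293 in CL1-5 and 382, 396 and 322 in CL1-0 and was not called, at -0.21 (95% interval -0.46 to 0.03). With the repeat number as a block RXRA passed as lower (adjusted p = 0.016). Its other probe set gave 0.14. RXRG failed the filter.

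THRA read 59.0, 83.4 and 80.1 units in CL1-5, against 39.3, 44.7 and 46.6 in CL1-0. The lines did not overlap and the difference was 0.67 (SE 0.14, adjusted p = 0.0030, limma). The other THRA probe sets, at 0.29 and -0.03, were not called. THRB failed the filter.

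Genes that make, carry and break down retinoids, from a list of 21, were called higher in 6 and lower in 2 of 15 tested, with a median of 0.12. The share called, 53.3%, lay near the 51.6% of all genes. Its furthest called members lay on both sides. ALDH1A1, which oxidises retinal, was at least 183-fold lower in CL1-5, and RDH10, which makes retinal from retinol, read 181, 181 and 221 units in CL1-5 and 2691, 2720.0 and 3257 in CL1-0, a difference of -3.85 (SE 0.11). The transglutaminase TGM2, known as induced by retinoic acid, was higher by 5.27 (SE 0.23). DHRS3, a retinal reductase that retinoic acid induces, was chosen after its values were seen and was higher by 2.33 (SE 0.16). ALDH1A2 and ALDH1A3, the other retinal oxidases, were not called, and neither was the retinoic acid hydroxylase CYP26B1. CYP26A1, the hydroxylase best known as a retinoic acid target, lay under the percentile on all arrays at 13.9 to 18.6 units.

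Of the 5 tested receptors for fatty acids, oxysterols and vitamin D, 3 rose and 2 fell, where 51.6% of all genes were called in either direction. Among the PPARs, PPARG and PPARD were higher in CL1-5 and PPARA lower. PPARG, the regulator of fat cell differentiation, read 183, 167 and 206 units in CL1-5 and 75.6, 71.0 and 77.7 in CL1-0. No CL1-5 array came near a CL1-0 array, and the difference was 1.23 (SE 0.11, adjusted p = 1.6e-05, limma), through a single probe set.

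PPARD, the widely expressed PPAR, read 709.8, 749 and 847 units in CL1-5 and 385, 357 and 419 in CL1-0, a difference of 0.98 (SE 0.10, adjusted p = 4.4e-05, limma). A second of its 3 tested probe sets was called at 0.56, and the third, at -0.02, was not. PPARA, the activator of fatty acid oxidation in liver, read 249.8, 193 and 166 in CL1-5 and 371, 335 and 266 in CL1-0. Repeat 3 was the lowest array of each line, the lines did not overlap, and the difference was -0.66 (SE 0.17, adjusted p = 0.0097, limma). Of its 6 tested probe sets 4 were called lower and 2 were not, with values from -0.69 to -0.29.

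PPAR targets of fatty acid handling were called higher in 3 and lower in 5 of 10 tested genes, with a median of -0.46. That is 80% called, against 51.6% of all genes, 23.3% higher and 28.3% lower. The fatty acid carrier CD36 was at least 2.16-fold lower, and the mitochondrial import enzyme CPT1A was lower by a difference of -1.44 (SE 0.09). ANGPTL4, an inhibitor of lipoprotein lipase that is also on the glucocorticoid list, was higher by 0.99 (SE 0.11).

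VDR, the vitamin D receptor, read 123, 131 and 148 units in CL1-5, against 32.2, 37.3 and 34.3 in CL1-0, a difference of 1.76 (SE 0.11, adjusted p = 1.6e-06, limma). The lines did not overlap, but the probe sets parted. A second one was at least 2.41-fold higher, while the other 2, at 0.21 and -0.13, overlapped and were not called. The second one passed the filter through the CL1-5 arrays alone, so its direction is no separate support. Of 5 tested VDR and PXR targets 1 was called (20%, against 51.6% of all genes), the vitamin D hydroxylase CYP2R1, lower at -1.20 (SE 0.12), and CYP24A1, the vitamin D target best known, lay under the percentile on all arrays at 4.89 to 6.79 units.

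NR1H3, the oxysterol receptor LXR alpha, read 67.5, 72.7 and 65.5 units in CL1-5 and 96.0, 91.9 and 77.8 in CL1-0. The lines did not overlap, but the margin was narrow and the difference was -0.34 (SE 0.11, adjusted p = 0.029, limma). Leaving out a CL1-5 array ended the call each time, at adjusted p of 0.075, 0.054 and 0.073 for repeats 1 to 3 (limma). Leaving out CL1-0 repeat 1 (0.089) or repeat 2 (0.093) did so too. LXR targets of sterol transport were called higher in 3 and lower in 3 of 11 tested genes, 54.5% against 51.6% of all genes and so near the background. The cholesterol exporter ABCA1 was higher by 3.66 (SE 0.09), while the phospholipid transfer protein PLTP (-3.57, SE 0.08) and the apolipoprotein APOC1 (-1.98, SE 0.15), read by a cross-hybridising probe set, were lower. NR1I3 failed the filter.

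**Figure D3:**
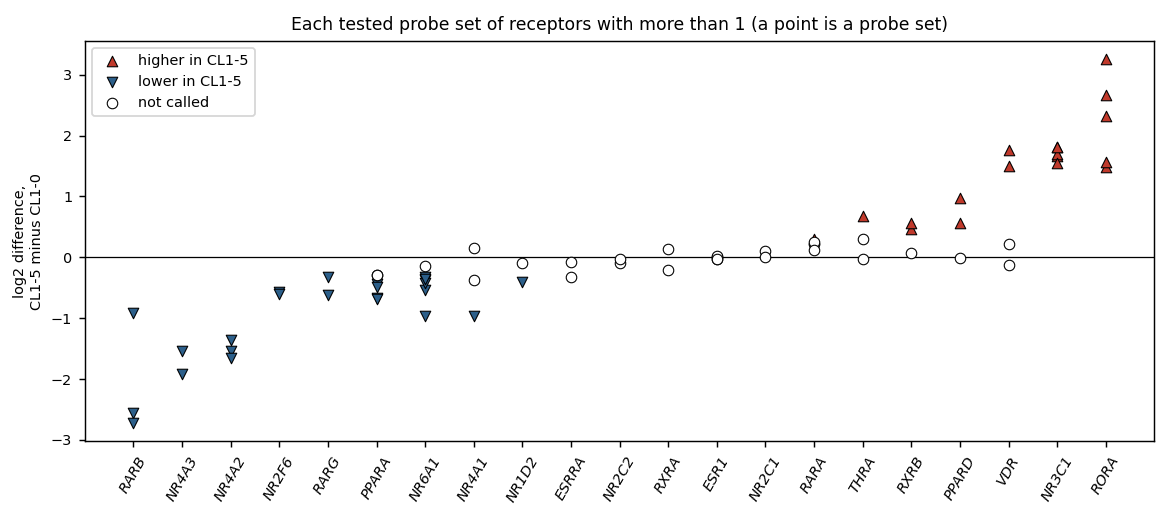
Log2 difference, CL1-5 minus CL1-0, of every tested probe set of the 21 receptors that have more than 1, red triangles called higher, blue triangles called lower and open circles not called. No receptor has probe sets called in both directions, while VDR, PPARD, THRA, NR4A1 and NR1D2 each mix called and uncalled ones.

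Of the 76 probe sets of listed genes that were tested, 45 were called over all probe sets, 59.2%, against 46.9% of all probe sets. Of the 21 receptors with more than 1 tested probe set, 7 had all of them called in 1 direction, 9 mixed called and uncalled ones, and 5 had none called. The 7 include RORA, whose 5 tested probe sets passed the filter through CL1-5 alone. They also include NR4A3, with 1 probe set that passed through CL1-0 alone. A probe set that passed in this way had its direction fixed by the filter. The labels give no transcript for a probe set, so reasons for disagreement between probe sets of a gene were not tested.

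Among the 5 tested steroid and estrogen-related receptors, the glucocorticoid receptor NR3C1 alone was called, where 51.6% of all genes were called in either direction. It read 3105, 3366 and 2923 signal units in CL1-5, against 988, 1046 and 859 in CL1-0. The lowest CL1-5 array was well above the highest CL1-0 array, and the difference was 1.69 (SE 0.09, adjusted p = 9.0e-07, limma). All 5 of its probe sets were called higher, between 1.55 and 1.82.

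Of 15 tested glucocorticoid receptor targets and chaperones 6 were higher and 6 lower, 80% called against 51.6% of all genes, with a median of 0.01. SGK1, a kinase induced by glucocorticoids, read 1768, 1675 and 1443 units in CL1-5 and 54.8, 50.2 and 39.4 in CL1-0, a difference of 4.90 (SE 0.13). The metallothionein MT2A (3.75, SE 0.15), whose probe set is of the cross-hybridising kind, and the phosphatase DUSP1 (3.32, SE 0.08) were higher as well. Named after their values were seen, the co-chaperone FKBP5 and the leucine zipper protein TSC22D3, known as GILZ, went the other way. FKBP5 read 413, 382 and 422 in CL1-5 and 894, 881 and 862 in CL1-0 (-1.10, SE 0.08), and TSC22D3 read 47.0, 52.6 and 58.5 in CL1-5 and 229.9, 244 and 193 in CL1-0 (-1.94, SE 0.12).

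The estrogen receptors ESR1 and ESR2 were dim and not called. The probe set for ESR1 read 36.7, 37.8 and 39.2 units in CL1-5 and 33.6, 39.6 and 38.3 in CL1-0, and 0 of its 4 tested probe sets was called. ESR2 differed by -0.05 (95% interval -0.45 to 0.35). ESRRA, an orphan receptor of mitochondrial genes, read 194, 229.7 and 256 in CL1-5 and 210.3, 220.2 and 293 in CL1-0 (-0.08, interval -0.42 to 0.26), and ESRRB differed by 0.06 (-0.15 to 0.27). NR3C2, PGR and ESRRG failed the filter. On the list of ESRRA and PPARGC1 targets, which holds ESRRA itself, 2 of 9 tested genes were higher and 4 lower, 66.7% against 51.6% of all genes. Cytochrome c, CYCS (-1.10, SE 0.07), and citrate synthase, CS (-1.02, SE 0.12), were lower, and the mitochondrial superoxide dismutase SOD2 was higher (1.18, SE 0.11).

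Of the NR4A receptors, NR4A2 and NR4A3 fell. NR4A2, or NURR1, which is required for dopamine neurons, read 25.7, 33.8 and 28.1 units in CL1-5, against 105, 103 and 112 in CL1-0 (-1.66, SE 0.11, adjusted p = 2.8e-06, limma). Its 3 tested probe sets were all called lower, at -1.66 to -1.37. NR4A3, or NOR1, read 30.6, 31.7 and 33.8 in CL1-5 and 104, 118 and 98.9 in CL1-0 (-1.54, SE 0.10, adjusted p = 2.6e-06, limma). Both receptors lay just above the percentile in CL1-5, with no overlap between the lines. A second NR4A3 probe set was at least 2.61-fold lower. It passed the filter through the CL1-0 arrays alone, so its direction is no separate support.

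NR4A1, or NUR77, gave different answers by probe set. The 1 that stood for the gene read 72.0, 69.9 and 66.6 units in CL1-5 and 52.1, 69.6 and 65.8 in CL1-0, and was not called at 0.15 (95% interval -0.13 to 0.42). Another, of the cross-hybridising kind, read 86.7, 93.4 and 73.9 in CL1-5 and 188, 156 and 170.3 in CL1-0. It was called lower at -0.96 (adjusted p = 3.9e-04 over all probe sets, limma), and the third, at -0.37, was not called. A direction for NR4A1 therefore depends on the probe set taken.

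Immediate early genes, which many stimuli induce together with the NR4A genes, were called higher in 7 and lower in 2 of 14 tested, with a median of 0.45, beside 23.3% higher and 28.3% lower over all genes. IER3 (5.92, SE 0.07), DUSP1 and the Kruppel-like factor KLF4 (2.96, SE 0.09) were higher. EGR3, chosen after its values were seen, was at least 1.94-fold lower, with 11.8, 10.7 and 13.6 units in CL1-5 and 44.6, 41.7 and 49.2 in CL1-0.

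NR6A1, the germ cell nuclear factor, read 65.1, 56.7 and 39.96 units in CL1-5 and 129, 129 and 78.5 in CL1-0. Repeat 3 was the lowest array of each line, and the difference was -0.96 (SE 0.22, adjusted p = 0.0051, limma). Of its 7 tested probe sets 6 were called lower, from -0.96 to -0.32, and 1 was not. NR0B2, or SHP, a corepressor without a DNA-binding domain, differed by -0.07 (95% interval -0.27 to 0.13), and NR5A1, the steroidogenic factor, by 0.05 (-0.26 to 0.36). NR5A2 failed the filter.

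The 11 receptors that failed the filter read between 4.76 and 23.2 signal units over all their probe sets and arrays. They were ESRRG, HNF4G, NR1I3, NR2E1, NR2E3, NR3C2, NR5A2, PGR, RORB, RXRG and THRB. The highest of these signals was that of 1 NR2E3 probe set on CL1-5 repeat 1. With no filter, over 19775 genes, 2 of the 11 were called. The 51.6% of all genes called belongs to the filtered fit, so it is no like background for this count. The 2 were HNF4G (0.32, adjusted p = 0.0051, limma) and NR2E1 (0.22, adjusted p = 0.046, limma), with no signal above 13.8 units, under the percentile in both lines. Each gene was read there by 1 probe set. A THRB probe set not taken, named after its values were seen, read 10.1, 7.99 and 9.39 units in CL1-5. In CL1-0 it read 16.8, 17.1 and 16.7 units, also under the percentile.

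Cofactors that the receptors share were called in both directions. Of 15 tested coactivators 3 were higher and 6 lower, 60% called against 51.6% of all genes, with a median of -0.32. NCOA7 (0.95, SE 0.09) and the p160 coactivator NCOA2 (0.88, SE 0.09) rose, and the acetyltransferase KAT2B fell (-0.86, SE 0.10). Of 15 tested corepressors 4 were higher and 7 lower, 73.3% called against the same 51.6%, with a median of -0.29. ZFPM2, a GATA cofactor, was at least 2.02-fold lower, and the NCOR complex subunit TBL1X (-1.16, SE 0.11) and TRIM24 (-1.04, SE 0.09), read by a cross-hybridising probe set, were lower too. Over all genes the median was -0.03.

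**Figure D4:**
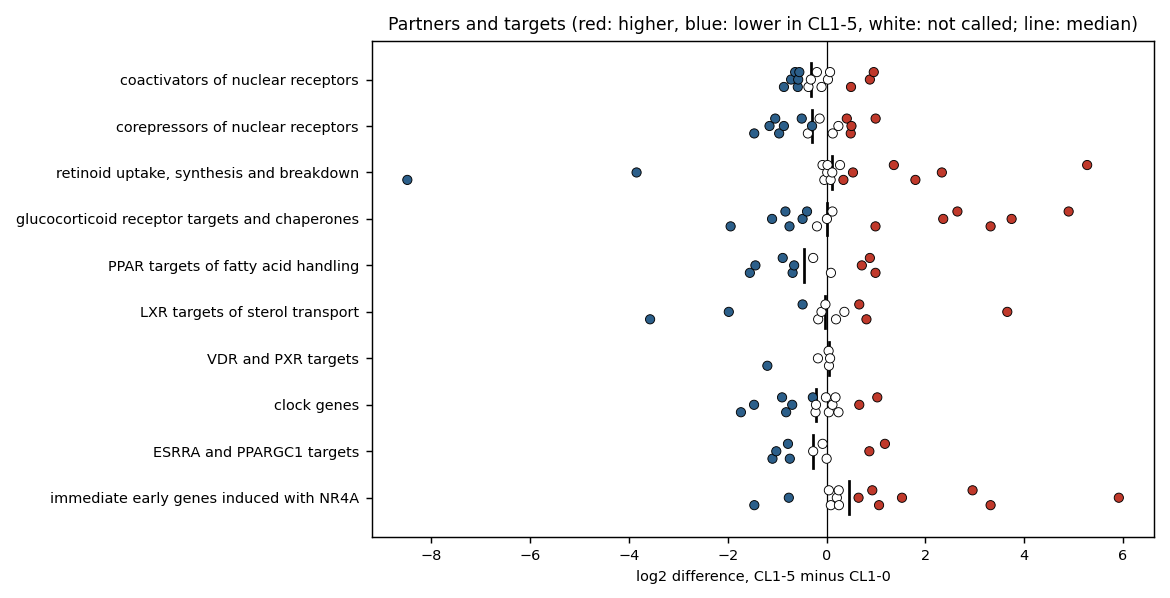
Log2 difference, CL1-5 minus CL1-0, of each tested gene (points) in 10 lists of receptor partners and targets, red called higher, blue called lower and white not called, with the list median as a black line. Medians run from -0.46 for the PPAR targets to 0.45 for the immediate early genes, and each list except that of VDR and PXR targets holds called genes on both sides of 0.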

How the data were processed

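Total RNA of 3 CL1-5 and 3 CL1-0 cultures was hybridised to one-colour Affymetrix arrays, per the labels. The authors deposited 1 linear intensity per probe set and array. MAS5 is named for this in the submitters' processing notes, with no version, and detection calls were not used. The groups and repeat numbers come from the sample titles, and p-values measure the spread between those repeats.

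The members and lists were chosen with earlier results of these data known. Signals were taken as log2(signal + 6.85), where 6.85 is the 10th percentile over all arrays. The annotation named 1 gene for 41091 of 54675 probe sets, of which 41037 got current symbols through RefSeq (GRCh38.p14). Probe sets with several genes (1801), with none (11721) and controls (62) were left out. Probe sets above the 40th percentile on at least 3 of 6 arrays were tested, and a gene was read by the one with the highest mean log2 value, cross-hybridising types (suffix x) being used only where no other passed. This left 14828 genes, compared in R 4.3.3 with limma 3.58.1 (eBayes with a trend, Benjamini-Hochberg). A fold is printed as "at least" where no array of 1 line exceeded the percentile. It sets the other line's mean against that line's values, each raised to the percentile. Every listed receptor is accounted for, and up to 3 called genes with the largest change are named for each list.

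Deviations from the line means correlated between arrays sharing a repeat number (r over genes of 0.475, 0.280 and 0.649), but the labels do not state that the numbers pair the arrays. Unmatched arrays correlated at -0.576 to 0.288. The values for repeats 1 and 3 lay above this range and that for repeat 2 within it. Deviations cancel out within a line, so the unmatched values are not independent of the matched ones. Because the labels state no pairing, the main fit has no block. A fit with the repeat number as a block is given among the alternatives. The fit was tested on simulated data for this comparison (14828 genes, 200 of them changed) and found 40% of changes of 0.5 (log2), 84% of those of 1 and 100% of those of 2 and of 4, with 7 false calls. The simulated noise was independent between arrays and few genes changed, whereas 51.6% of genes were called in the data. These rates therefore need not hold for the data. Alternatives were the constant, filter, scaling, variance trend, array weights, probe set, block, threshold and leaving out each array.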

Additional observations from a re-analysis of the deposited data

How the results depend on the processing

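Of the 16 called receptors, 14 kept their call and direction in each of 18 alternatives and in a fit of repeats 1 and 2 alone, which was added after the data were seen. The exceptions, NR1H3 and RARG, are those lost without single arrays, as given with their values, and at an adjusted p under 0.01. With constants of 1 or 32, quantile or median scaling, no variance trend, and filters on 2 arrays or at the 60th percentile, 7 receptors were higher and 9 lower. Leaving out 1 array, with the filter on 2 arrays, gave 7 to 8 higher and 7 to 10 lower, and over all genes 2944 to 3413 higher and 3614 to 4264 lower. Of the 12 uncalled receptors 9 stayed uncalled wherever they were tested. RXRA passed as lower with the replicate block (adjusted p = 0.016, difference -0.21), with array weights (0.011), without CL1-0 repeat 3 (0.032) and in repeats 1 and 2 (0.035). RARA passed without CL1-0 repeat 2. With the probe set of largest variance NR4A1 turned to -0.96, because another probe set was taken. The replicate block gave 7 receptors higher and 10 lower and changed no other receptor call, and over all genes 4145 higher and 5149 lower, against 3448 and 4196 without it. Dim receptors near the 40th percentile have the least room to show a fall.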
